A study of Saccharomyces cerevisiae and Schizosaccharomyces pombe with 8 samples.

Results

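The genes described are the 10 genes of leucine, isoleucine and valine synthesis in the budding yeast Saccharomyces cerevisiae: ILV1, ILV2, ILV3, ILV5, ILV6, LEU1, LEU2, LEU4, BAT1 and BAT2. They were taken by name from the R64 annotation, 10 of its 6431 nuclear genes; the rule names genes and sets no threshold on a measured value, but the set was picked with earlier results of these data known. The libraries hold the 3′ ends of polyadenylated RNA, as read counts per chromosome, strand and cleavage position. Wild-type S. cerevisiae was grown in minimal medium (2 libraries) or in rich medium (2 libraries). The labels do not name the strain, do not give the media recipes, so that the amino acids supplied are not known here, and do not say whether the libraries of a medium came from separate cultures. The p-values therefore rest on differences among libraries that could be technical repeats. The series compares alternative polyadenylation in budding and fission yeast, and its 4 Schizosaccharomyces pombe libraries were not used here.

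Valine and isoleucine are built in mitochondria by the same chain of enzymes, which starts from pyruvate for valine and from threonine and pyruvate for isoleucine. Leucine synthesis branches off from the last precursor of valine, and aminotransferases complete all 3 amino acids. In budding yeast many of the genes are known targets of Gcn4, an activator whose translation rises when amino acids run short, and several are targets of Leu3, an activator that responds to alpha-isopropylmalate, the product of the first step of the leucine branch.

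Replicates 1 and 2 gave 1174191 and 1253021 reads for minimal medium, and 2057269 and 1558011 for rich medium. Each read marks 1 transcript end, so levels are given as CPM, the gene's reads scaled to the TMM-adjusted total of reads in genes, and are not divided by gene length. Replicates differed more in rich than in minimal medium, as measured by chi-square over its degrees of freedom across genes (8.54 against 2.25). The rich libraries were also deeper, and this measure was not adjusted for depth. All 5 markers of mating type a had reads in every library, with a summed level of 1539 to 2324 CPM before TMM scaling, while the 4 markers of mating type alpha summed to 10.6 to 13.1 CPM on that unscaled measure. All 7 genes listed as auxotrophic markers of laboratory strains had reads in every library. LEU2 had 220 to 346, but TRP1 had 5 to 21 and ADE2 had 1 to 4, near the counting floor of 3 reads used here. Having reads does not show that a gene is intact.

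Sites for both activators lie before many of these start codons, and they are shown first because the genes are described against them later. The search covered the 500 nt before each start codon on both strands. The letters TGACTC, the core of the Gcn4 site, were found before 7 of the 10 genes, and before 12.6% of all 6002 coding genes of R64. The 30-base stretches below are read 5′ to 3′ on the strand of the gene from the R64 sequence, with the core in capitals. For ILV1 the core lies on the opposite strand and reads as GAGTCA, and for ILV5 the nearest of its 3 matches is shown.
ILV1, chrV:328332-328361, plus strand: atcaaagaaaaaGAGTCAtctcaaacatat
ILV3, chrX:466326-466355, minus strand: ttcctctccagaTGACTCagtaatatagta
ILV5, chrXII:839376-839405, minus strand: gatgacctaactTGACTCaatggcttttac
ILV6, chrIII:105681-105710, minus strand: tcaccgttatcgTGACTCactttctttcgc
LEU4, chrXIV:426838-426867, minus strand: cttacgtgtaagTGACTCagttctttcaaa
BAT1, chrVIII:517349-517378, plus strand: attgccttcttaTGACTCaaaattctattg
LEU1, chrVII:478936-478965, minus strand: cattactctagaTGACTCagtttagtctga

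The Leu3 palindrome was searched for as CCGG, any 2 bases and CCGG again. It was found before 5 of the 10 genes and before 16 of the 6002 coding genes, or 0.267%. The palindromes are in capitals below, and none overlapped a TGACTC match. The middle bases are TA in ILV2, ILV5 and BAT1, and differ in LEU1 and LEU2. BAT2 had neither motif in these 500 nt. A match describes the letters and does not show that a factor binds there.
ILV2, chrXIII:483606-483635, plus strand: ccggagcctgCCGGTACCGGcttggcttca
ILV5, chrXII:839611-839640, minus strand: gcggtctcctCCGGTACCGGttctgccacc
LEU1, chrVII:478850-478879, minus strand: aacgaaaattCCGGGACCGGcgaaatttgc
LEU2, chrIII:91116-91145, plus strand: ggtgagagcgCCGGAACCGGcttttcatat
BAT1, chrVIII:517375-517404, plus strand: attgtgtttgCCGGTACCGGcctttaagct

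Of the 10 genes, 6 rose in minimal medium, BAT2 fell and 3 did not pass the test (edgeR quasi-likelihood test, adjusted p under 0.05). ILV3 and ILV1 rose 3.06-fold and 2.95-fold, ILV5, ILV6 and BAT1 rose 2.14-fold, 2.02-fold and 2.02-fold, and LEU4 rose 1.64-fold. LEU1, LEU2 and ILV2 had folds of 1.06, 1.07 and 1.13. Over all 4650 genes tested, 17.7% were higher in minimal medium and 15.7% were lower, so the 1 gene of the 10 that fell is no larger a share than the background. The median log2 change was 0.86 over the 10 genes and -0.01 over all genes tested. Both minimal libraries lay above both rich libraries for the 6 genes that rose, an order seen in 33.4% of genes, and below them for BAT2, seen in 33.1%.

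**Figure D1:**
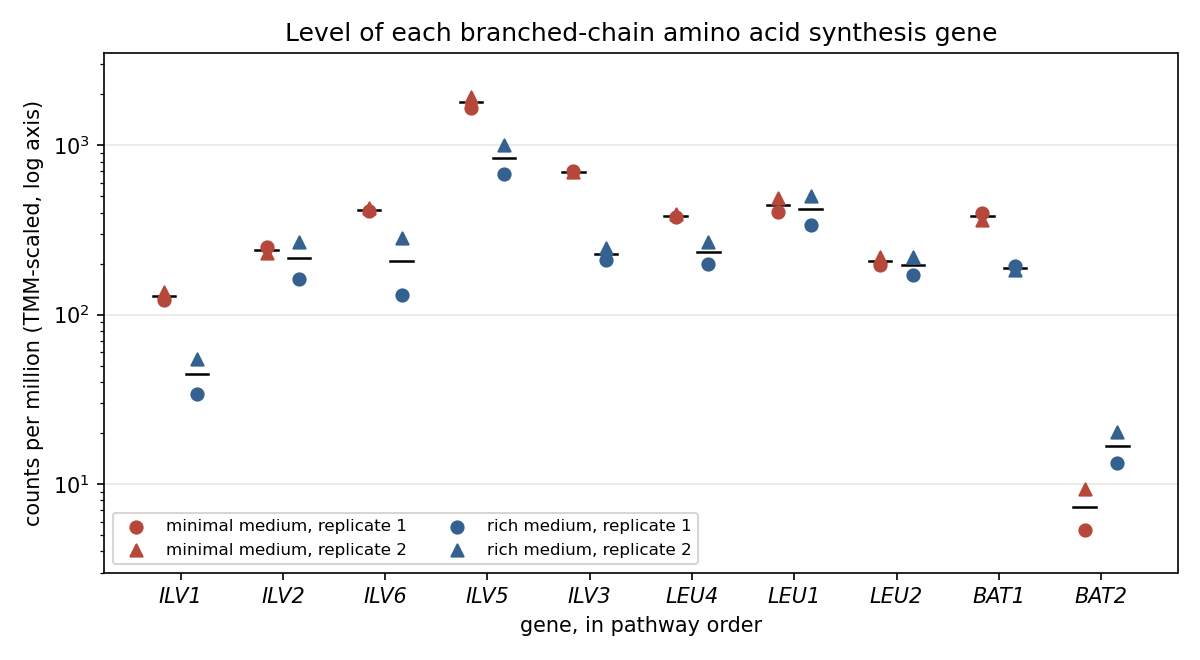
Level of each gene in every library, in TMM-scaled CPM on a log axis, with the 2 libraries of each medium as points and the mean as a bar. ILV5 is the highest gene in all 4 libraries and BAT2 the lowest, and the points of the 2 media overlap only for ILV2, LEU1 and LEU2.

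ILV1 (YER086W, chrV:328477-330207, plus strand) encodes threonine deaminase, which makes the precursor that commits threonine to isoleucine. Its levels were 122 and 137 CPM in minimal medium and 34.2 and 54.6 CPM in rich medium. Both minimal libraries were more than 2 times as high as either rich library. The log2 change was 1.56 (SE 0.22, adjusted p = 6.03e-06).

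ILV2 and ILV6 encode the catalytic and the regulatory subunit of acetolactate synthase, which carries out the first step common to both amino acids and is inhibited by valine through the regulatory subunit. ILV6 (YCL009C, chrIII:104619-105548, minus strand) stood at 407 and 426 CPM in minimal medium and at 131 and 284 CPM in rich medium. The rich libraries differed from each other by more than the minimal libraries did, yet both were lower. The log2 change of ILV6 was 1.01 (SE 0.23, adjusted p = 0.00108). It was 0.55 without rich replicate 1 and 1.65 without rich replicate 2, and DESeq2 gave an adjusted p of 0.165.

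ILV2 (YMR108W, chrXIII:484084-486147, plus strand) stood at 251 and 231 CPM in minimal medium and at 162 and 268 CPM in rich medium. The minimal libraries lay between the rich ones. Its log2 difference was 0.17, with a 95% interval of -0.24 to 0.58 (adjusted p = 0.545). Without rich replicate 2 it was 0.56, and without rich replicate 1 it was -0.15. Such a fit leaves 1 rich library, so its spread between replicates comes from the minimal libraries alone. The reads of the regulatory over the catalytic subunit gene had a ratio of 1.63 and 1.84 in minimal against 0.813 and 1.06 in rich medium. The ratio was higher in both minimal libraries, and an exact two-sided permutation test of 2 libraries against 2 gave p = 0.333, the smallest it can give.

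ILV5 and ILV3 act next on both chains. ILV5 (YLR355C, chrXII:838066-839253, minus strand) encodes acetohydroxyacid reductoisomerase, an enzyme that also helps keep mitochondrial DNA stable. It was the most abundant of the 10 genes, at 1662 and 1926 CPM in minimal medium and 679 and 1001 CPM in rich medium, with no overlap. Its log2 change was 1.10 (SE 0.18, adjusted p = 5.09e-05). ILV5 gave 38.1% ± 1.93 of all reads of the 10 genes in minimal medium and 32.4% ± 0.666 in rich medium (SD, n = 2 each).

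ILV3 (YJR016C, chrX:464451-466208, minus strand) encodes dihydroxyacid dehydratase, an iron-sulfur enzyme. Its levels were 700.2 and 691 CPM in minimal medium and 209 and 247 CPM in rich medium. ILV3 had the largest log2 change of the 10 genes and a narrow spread in each medium: 1.61 (SE 0.17, adjusted p = 7.40e-08). Its reads over those of ILV2 had a ratio of 2.79 and 2.99 in minimal against 1.29 and 0.922 in rich medium (exact permutation p = 0.333).

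Of the 3 genes of the leucine branch, LEU4, which carries out the first step, rose, and LEU1 and LEU2 did not pass the test. LEU4 (YNL104C, chrXIV:424895-426754, minus strand) encodes the main alpha-isopropylmalate synthase, which is inhibited by leucine. Its levels were 374 and 392 CPM in minimal medium and 200.2 and 269 CPM in rich medium, with no overlap. The log2 change was 0.71 (SE 0.18, adjusted p = 0.00312). It was 0.75 without minimal replicate 1 and 0.69 without minimal replicate 2, and the call was lost in both. The SE was 0.30 in both, where the spread between replicates came from the rich libraries alone. Leaving out rich replicate 1 gave 0.51, and leaving out rich replicate 2 gave 0.92.

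LEU1 (YGL009C, chrVII:476313-478652, minus strand) encodes isopropylmalate isomerase. It stood at 404 and 487 CPM in minimal medium and at 338 and 501 CPM in rich medium, so the minimal libraries lay inside the range of the rich ones. The log2 difference was 0.09, with a 95% interval of -0.29 to 0.47 (adjusted p = 0.745). Without rich replicate 2 it was 0.39, and without rich replicate 1 it was -0.17.

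LEU2 (YCL018W, chrIII:91324-92418, plus strand) encodes beta-isopropylmalate dehydrogenase, the enzyme of the step after LEU1. It stood at 197 and 219 CPM in minimal medium and at 170 and 219.8 CPM in rich medium. Here too the minimal libraries lay inside the range of the rich ones. Its log2 difference was 0.10, with a 95% interval of -0.28 to 0.47 (adjusted p = 0.722). The intervals of LEU1, LEU2 and ILV2 all included 0. Differences between these genes and those that rose were tested only as ratios for ILV6 over ILV2, ILV3 over ILV2 and LEU4 over LEU2. These pairs were not among the planned tests. The permutation test of the ratios cannot give a p under 0.333, so it could not decide whether the genes differed. The reads of LEU4 over LEU2 had a ratio of 1.90 and 1.79 in minimal against 1.17 and 1.22 in rich medium (exact permutation p = 0.333).

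BAT1 and BAT2 encode the mitochondrial and the cytosolic branched-chain aminotransferase, a pair of paralogs that catalyse the last step of synthesis and the first of breakdown. They moved in opposite directions. BAT1 (YHR208W, chrVIII:517532-518713, plus strand) stood at 398 and 361 CPM in minimal medium and at 193 and 183 CPM in rich medium. Its log2 change was 1.01 (SE 0.17, adjusted p = 5.31e-05).

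BAT2 (YJR148W, chrX:705744-706874, plus strand) was the lowest of the 10 genes, with 6 and 11 reads in minimal against 27 and 32 reads in rich medium. These are 5.37 and 9.34 CPM against 13.4 and 20.3 CPM, with no overlap. The log2 change was -1.15 (SE 0.40, adjusted p = 0.0266). The call rests on few reads. It was lost without minimal replicate 1 (log2 change -0.81) and without rich replicate 2 (-0.86). DESeq2 gave BAT2 no adjusted p.

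BAT1 gave 98.7% (95% Wilson interval 97.1% to 99.4%) and 97.5% (95.5% to 98.6%) of the reads of the pair in minimal medium. In rich medium it gave 93.5% (90.7% to 95.5%) and 90.0% (86.2% to 92.8%). The intervals cover counting error only, and those of the minimal libraries did not overlap those of the rich libraries. The reads of BAT1 over BAT2 had a ratio of 74.2 and 38.6 in minimal against 14.4 and 9.0 in rich medium (exact permutation p = 0.333). The longest run of identical bases in the 300 nt before their main cleavage sites was 9 nt.

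In minimal medium the order of mean levels was ILV5 (1794 ± 187 CPM), ILV3 (695 ± 6.84), LEU1 (445 ± 58.6), ILV6 (416 ± 12.8), LEU4 (383 ± 12.2), BAT1 (380 ± 26.5), ILV2 (241 ± 13.9), LEU2 (208 ± 15.7), ILV1 (129 ± 10.6) and BAT2 (7.36 ± 2.81; SD, n = 2). LEU1 overlapped ILV6, and LEU4 overlapped BAT1. In rich medium ILV5 (840.1 ± 227 CPM) and LEU1 (419 ± 115) came first. LEU4 (234 ± 48.5), ILV3 (228 ± 27.2), ILV2 (215 ± 75.3), ILV6 (208 ± 108), LEU2 (195 ± 34.9) and BAT1 (188 ± 6.93) followed, each overlapping its neighbour in the order, and ILV1 (44.4 ± 14.5) and BAT2 (16.9 ± 4.91) were lowest. The 10 genes together gave 0.456% ± 0.0205 of the reads in genes in minimal medium and 0.268% ± 0.0728 in rich medium (SD, n = 2 each).

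Rich replicate 1 was below rich replicate 2 in 9 of the 10 genes, all but BAT1, against 52.02% of all genes tested. Minimal replicate 1 was below minimal replicate 2 in 7 of the 10, against 50.3% of all genes tested. ILV1, ILV3, ILV5, LEU4 and BAT1 passed the test in the same direction in every other expression setting that kept all libraries. They also kept their direction when each library was left out in turn.

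All 6 genes that rose have a TGACTC match in the 500 nt before the start codon. Of the 3 genes that did not pass, LEU1 has a match too, whereas ILV2 and LEU2 have none. In the 6 genes the match nearest to the start codon begins 101 to 171 nt before it, and in LEU1 it begins 301 nt before it. LEU1 is a single gene, and whether distance goes with the change was not tested. The 3 genes that did not pass all have the Leu3 palindrome, as do ILV5 and BAT1, which rose.

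**Figure D2:**
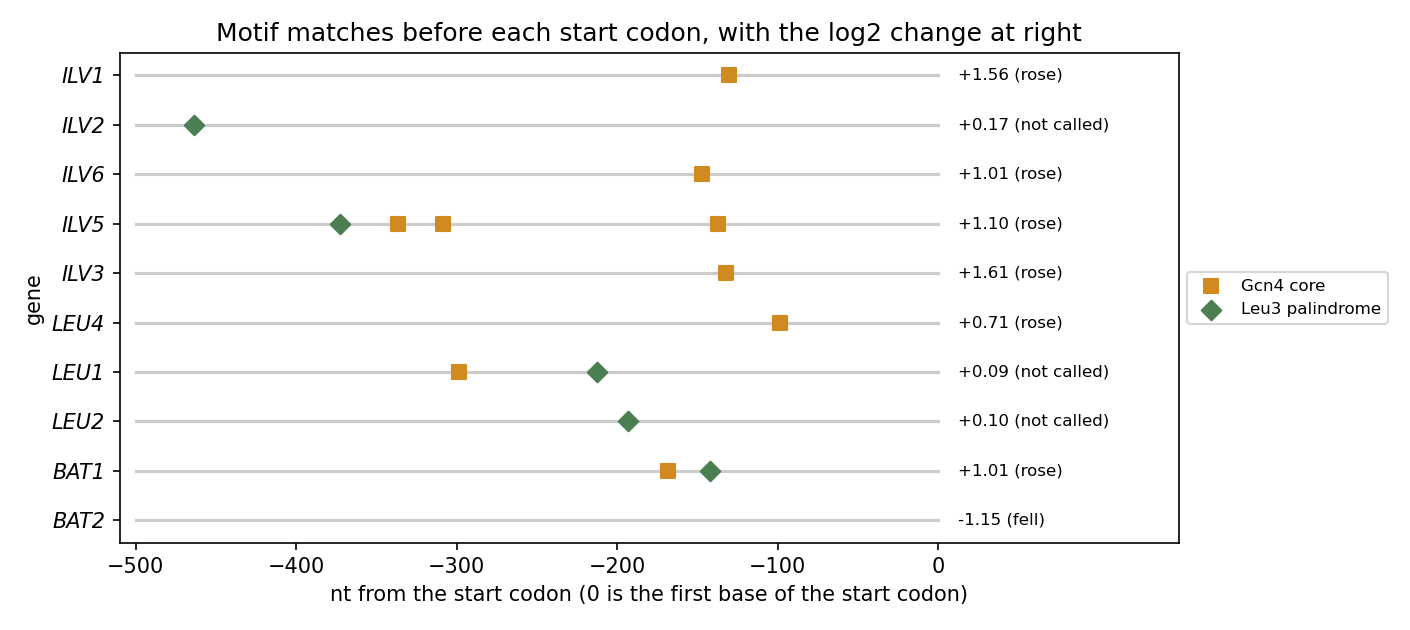
Positions of the Gcn4 core and the Leu3 palindrome in the 500 nt before the start codon of each gene, in nt from the start codon, with the log2 change of the gene at right. The 6 genes that rose each have the Gcn4 core, and the match nearest to the start codon lies farther out in LEU1 than in those 6. Whether distance goes with the change was not tested.

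A further 30 genes of the pathway's surroundings, in 5 lists, were read from the same fit, and 27 had enough reads to be tested. Of these, 11 rose, CHA1 fell and 15 did not pass, beside the 17.7% of all genes that were higher and 15.7% lower. Their median log2 change was 0.40. PDC5, PDC6 and IAH1 had too few reads.

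The threonine branch, which makes the substrate of ILV1, had 4 of 5 genes higher in minimal medium and a median log2 change of 0.98. THR1, homoserine kinase, rose by 1.98 (SE 0.23, adjusted p = 2.63e-07), from 22.3 and 27.3 CPM in rich medium to 92.2 and 103 CPM in minimal medium. HOM3, the aspartate kinase that opens the branch, rose by 1.62 (SE 0.27), THR4, threonine synthase, by 0.98 (SE 0.18), and HOM2, aspartate semialdehyde dehydrogenase, by 0.63 (SE 0.17). HOM6, homoserine dehydrogenase, had a log2 difference of 0.03. The 4 genes that rose all have a TGACTC match, at 101 to 283 nt before the start codon for the match nearest to it. Over all 5 lists, 7 of the 11 genes that rose have a match and BAP3, TAT1, ARO10 and PDC1 have none. Of the 15 that did not pass, 4 have it (LEU3, BAP2, OAC1 and ILS1). The nearest match begins 98 nt (VAS1) to 437 nt (AGP1) before the start codon in those 7. It begins 102 nt (ILS1) to 332 nt (OAC1) before it in those 4, so the ranges overlap.

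Among the regulators and second genes, the activators' own transcripts did not pass. GCN4 stood at 2593 and 2516 CPM in minimal medium and at 2579 and 1749 CPM in rich medium, a log2 difference of 0.24 (95% interval -0.14 to 0.62, adjusted p = 0.338). With reads past the stop codon only it was 0.51 and passed (adjusted p = 0.0264). Without rich replicate 1 it was 0.55, and without rich replicate 2 it was -0.024. Reads ending inside the coding region were 49.8% ± 2.47 of the GCN4 reads in minimal medium and 58.8% ± 1.75 in rich medium (SD, n = 2 each). LEU3 had 25 and 32 reads in minimal against 42 and 34 in rich medium, a log2 difference of 0.23 (95% interval -0.37 to 0.83, adjusted p = 0.583).

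LEU9, the paralog of LEU4 that encodes the second alpha-isopropylmalate synthase, rose by 1.32 (SE 0.40, adjusted p = 0.0127), on 13 and 16 reads in minimal against 11 and 7 in rich medium. The reads of LEU4 exceeded those of LEU9 by 32.2 and 28.8 times in minimal medium and by 36.7 and 60.4 times in rich medium (exact permutation p = 0.333). Their longest identical run before the main cleavage sites was 14 nt. CHA1, the serine and threonine deaminase that breaks threonine down and is induced by serine and threonine, fell by 2.43 (SE 0.42, adjusted p = 7.16e-05), with 6 and 5 reads in minimal against 40 and 53 in rich medium. ILV1 and CHA1 thus catalyse the same reaction on threonine, and the gene for synthesis rose while the gene for breakdown fell. MMF1, a mitochondrial protein needed for isoleucine synthesis, had a log2 difference of 0.24 (adjusted p = 0.286).

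Of 7 transport genes, 3 rose and none fell, with a median log2 change of 0.40. AGP1, a broad amino acid permease, rose by 1.77 (SE 0.19), BAP3, a branched-chain amino acid permease, by 1.37 (SE 0.18), and TAT1, which carries valine, leucine and isoleucine as well as tyrosine, by 0.58 (SE 0.20). BAP2, another branched-chain amino acid permease, had a log2 difference of 0.40 (adjusted p = 0.140). The log2 difference of BAP2 was 0.68 without rich replicate 2 and 0.14 without rich replicate 1. BAP2 passed with reads past the stop codon only (0.81, adjusted p = 0.00654). It is also the single gene of the 5 lists with the Leu3 palindrome, named after its values were seen. OAC1, the mitochondrial carrier that exports alpha-isopropylmalate, had a log2 difference of -0.41 (adjusted p = 0.0773).

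Of 5 tRNA synthetase genes, VAS1, for valine, rose by 0.72 (SE 0.22), and the list's median was 0.15. Of the 8 genes of breakdown to fusel alcohols and esters, 5 were tested, with a median of 0.46. ARO10 and PDC1, decarboxylases of keto acids, rose by 0.65 each (SE 0.17 each). ATF1 and ATF2, the alcohol acetyltransferases that make esters, had log2 differences of -0.64 and -0.70 and did not pass (adjusted p = 0.0586 and 0.0826). Both minimal libraries lay below both rich ones for each, an order seen in 33.1% of all genes tested. HOM2, LEU9, TAT1, VAS1, ARO10 and PDC1 lost the call without minimal replicate 1, and these and THR4 lost it without minimal replicate 2. The spread between replicates then came from the rich libraries alone. The log2 changes in the fits that lost the call ran from 0.41 (TAT1, without minimal replicate 2) to 1.43 (LEU9, without minimal replicate 1). LEU9 and VAS1 also lost the call without rich replicate 2, and TAT1 without rich replicate 1 (0.25). TAT1 and VAS1 lost it by DESeq2 (adjusted p = 0.0960 and 0.0843). DESeq2 gave LEU9 no adjusted p, and it called 8 genes of the lists higher in place of 11.

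**Figure D3:**
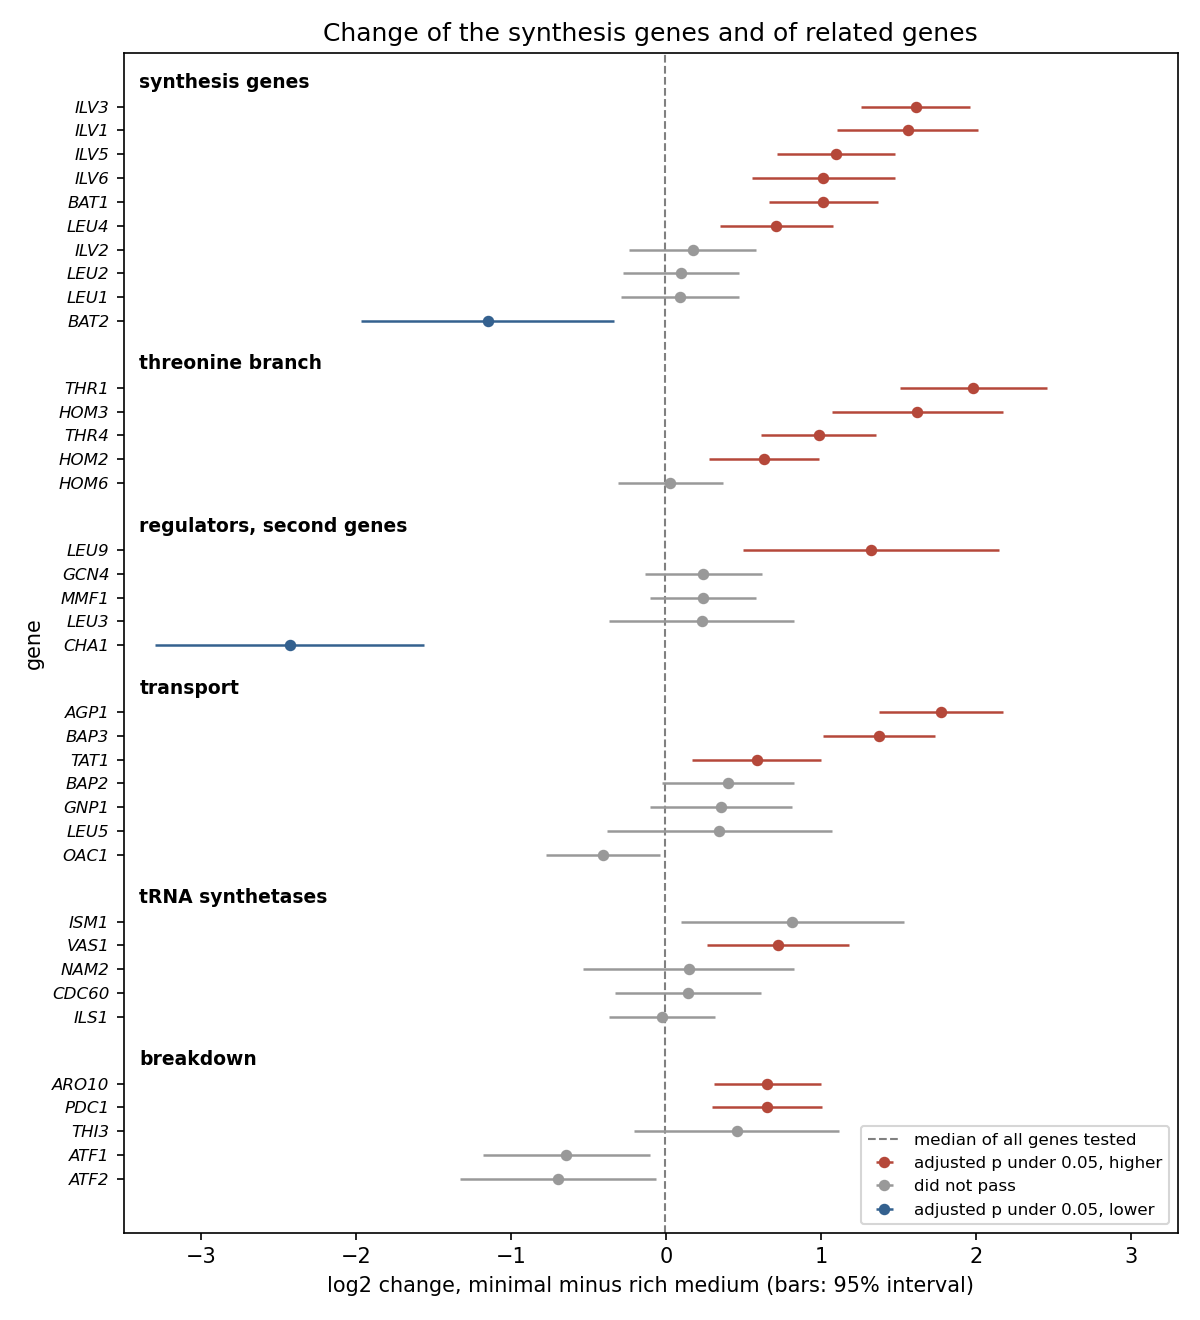
Log2 change, minimal minus rich, with 95% intervals, for the 10 synthesis genes and the 27 tested genes of the 5 lists; the dashed line is the median of all genes tested. Red marks genes that were higher in minimal medium, blue those that were lower, and grey those that did not pass; the blue points are BAT2 and CHA1.

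Where the transcripts ended was then compared between the media. Reads of each gene were joined into sites within 24 nt of the most used position, and sites under 5% of the reads were dropped. ILV2 and BAT1 had a single site, at 165 and 156 nt past the stop codon, which held 97.1% to 99.1% and 97.4% to 98.6% of their reads across the libraries. The main site of the other genes lay at 222 nt in ILV5, 164 nt in ILV3, 155 nt in ILV1, 148 nt in ILV6, 144 nt in LEU1, 115 nt in LEU4, 100 nt in LEU2 and 63 nt in BAT2. ILV5 thus had the longest and BAT2 the shortest stretch from stop codon to main site.

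Within the main site the genes differed in the share of reads at the single most used base. Positions with at least 20 reads were followed by A in at most 0.535% of cases on any chromosome. How runs of A in the genome bear on these shares was not tested. The single most used base held 79.6% to 83.4% of all ILV3 reads across the 4 libraries, but 23.0% to 26.0% of LEU1 reads and 23.3% to 37.5% of ILV1 reads. The efficiency element of yeast poly(A) sites, searched for on the strand of the gene as TATATA, as TATGTA, as TACATA and as TACGTA, lay 20 to 80 nt before the main site in 7 of the 10 genes, beside 62.7% of 5655 genes. ILV1, ILV6 and LEU4 had none of these letters there.

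Site use was tested as the reads of the distal over the proximal of the 2 most used sites. No call was made among the 7 genes with enough reads at 2 sites (edgeR, adjusted p under 0.05), beside 2.23% of 2513 genes, and 2 of the 7 had an unadjusted p under 0.05, beside 13.9%. DESeq2 also made 0 calls among them. The 2 genes are ILV1 and LEU4, and the mean distal share of both was larger in minimal medium. As almost no position was followed by A, whether a capital A below is the cleaved base itself was not tested. The sites of ILV1 and LEU4 are shown with those of ILV5 and BAT2 to let the sequences be read side by side. They read 5′ to 3′ on the strand of the gene in R64, with the most used deposited position in capitals.
ILV1 proximal, 69 nt past the stop codon, chrV:330257-330286, plus strand: gaacgtcgtcataatttaaAtactagacag
ILV1 distal, 155 nt, chrV:330343-330372, plus strand: atacaagatttacagttctCttgttttctt
LEU4 proximal, 115 nt, chrXIV:424770-424799, minus strand: aagcacggatgtctaaattAgaattacgtt
LEU4 distal, 145 nt, chrXIV:424740-424769, minus strand: ttaatatctttttttccatAtctagggcta
ILV5 proximal, 222 nt, chrXII:837834-837863, minus strand: caatctaattaaatcgaaaAcaagaaccga
ILV5 distal, 296 nt, chrXII:837760-837789, minus strand: cctcatcgggacagctacgAtttctctttc
BAT2 proximal, 63 nt, chrX:706918-706947, plus strand: taaaactagagcgttttttCtactgagtta
BAT2 distal, 171 nt, chrX:707026-707055, plus strand: atgtatgtcgaaacctgcaAttatcctttc

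ILV1 ended at its distal site in 89.3% ± 0.0209 of the reads of the pair in minimal medium and in 79.4% ± 2.14 in rich medium (SD, n = 2 each). The log2 change of distal over proximal was 1.12 (SE 0.49), with an unadjusted p of 0.0213 and an adjusted p of 0.231 by edgeR. In raw reads, from libraries of unequal depth, the proximal site held 13 and 15 in minimal against 12 and 17 in rich medium, and the distal site held 108 and 125 against 51 and 60. The mean end of ILV1 lay 142.4 ± 0.330 nt beyond the stop codon for minimal medium and 133.3 ± 2.35 nt for rich medium, a difference of 9.09 nt (exact two-sided permutation p = 0.333).

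LEU4 ended at its distal site in 10.3% ± 3.57 of the reads of the pair in minimal medium and in 6.01% ± 1.57 in rich medium (SD, n = 2 each). The log2 change was 0.84 (SE 0.34), with an unadjusted p of 0.0137 and an adjusted p of 0.188 by edgeR. It was 0.40 without minimal replicate 2 (adjusted p = 0.865) and 1.202 without minimal replicate 1 (adjusted p = 0.534). The sites lie 30 nt apart, close to the joining distance.

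In ILV5 the distal site, at 296 nt, held 13.9% and 12.5% of the reads of the pair in minimal medium, and 17.8% (95% Wilson interval 15.8% to 19.99%) and 9.04% (7.68% to 10.6%) in rich medium. The rich libraries lay on either side of the minimal ones, and the intervals of the rich libraries did not overlap each other. BAT2 had too few reads for the test, with 5 and 10 proximal and 1 and 1 distal reads in minimal medium, and 14 and 20 proximal and 12 and 8 distal reads in rich medium. The mean end of BAT2 lay 78.6 ± 6.24 nt beyond the stop codon for minimal medium and 113 ± 6.93 nt for rich medium, a difference of -33.9 nt (exact permutation p = 0.333). For the other 8 genes the difference in mean end lay between -0.37 and 1.52 nt.

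**Figure D4:**
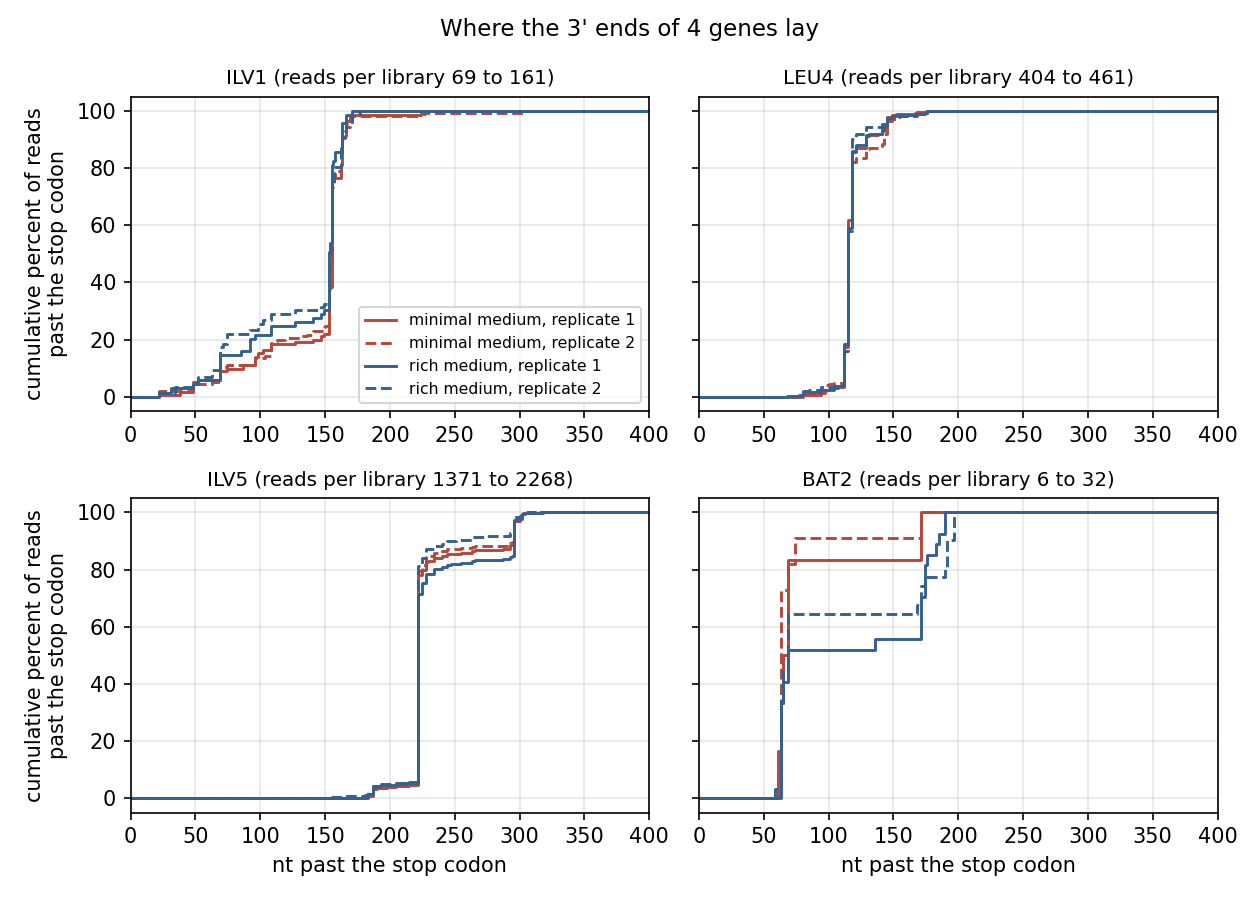
Cumulative percent of the reads past the stop codon against the distance from the stop codon in nt, for ILV1, LEU4, ILV5 and BAT2, with 1 line per library. The curves of ILV1 and BAT2 (6 to 32 reads per library) are set apart by medium between the proximal and the distal site, while in ILV5 the rich libraries lie on either side of the minimal ones.

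Few reads ended inside the coding regions, and they are given as raw reads from libraries of unequal depth. LEU2 had 4 and 4 such reads in minimal against 20 and 8 in rich medium, of which 3, 4, 17 and 7 lay in the first 100 nt of the coding region. ILV6 had 10 and 3 in minimal against 1 and 2 in rich medium. No other gene of the 10 had more than 2 in any library.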

How the data were processed

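The files hold raw read counts per cleavage position, as deposited by the authors, with no header and no normalization recorded. Reads were aligned with Bowtie2, per the submitters' processing notes, with no version given. Those notes name only ASM294v2, an S. pombe assembly. All S. cerevisiae positions lay within the R64 chromosomes, and A followed at most 0.535% of the positions with at least 20 reads on any chromosome, so R64 coordinates were used.

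Reads were summed per gene on its strand, from the start codon to 500 nt past the stop codon or to the next gene on that strand (268 nt in ILV6, 285 in BAT2, 368 in ILV1, 399 in LEU4 and 439 in ILV2). Between 96.5% and 97.5% of nuclear reads fell in genes. Genes that passed filterByExpr went into the quasi-likelihood F-test of edgeR 4.0.16, with TMM scaling, in R 4.3.3, with Benjamini-Hochberg adjustment over all 4650 genes and a threshold of 0.05. SE is the log2 change over the square root of F. The same tool tested the site-by-medium term over the 2513 genes whose 2 most used sites held a mean of 20 or more reads per library. DESeq2 1.42.0, other scaling, filters, windows, joining distances, a replicate block and leaving out each library were the alternatives. Single values were tested by exact permutation over libraries. On counts simulated with 200 of 4650 genes changed, the expression test recovered 66% of genes changed 2-fold and 99% of those changed 4-fold. Of its calls, 2.9% were false. The site test recovered 29% of simulated 4-fold changes, with a spread of site shares set by hand. The simulated libraries were independent, and the expression counts took the fitted dispersions, equal in both media. These shares describe the simulation and do not give the share of false calls in these data.

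The 5 lists, like the 10 genes, were chosen with earlier results of these data known. All 10 are named, together with the list genes that passed, GCN4, LEU3 and LEU9, and the 3 other genes whose centred log2 profile over the 4 libraries lay nearest to that of the 10 (mean of at least 50 CPM). HOM6, MMF1, BAP2, OAC1, ILS1, ATF1 and ATF2 were named in addition, after their values were seen. Replicate numbers are not stated to pair libraries, and no block was used in the values given.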

Additional observations from a re-analysis of the deposited data

Results flagged for a closer look

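Reads outside the same-strand counts of the genes were present in every library at 3 places. ILV6 had 12 and 10 antisense reads inside the gene in minimal against 17 and 6 in rich medium, in the window of no annotated gene, so that 6 was the lowest count. LEU2 had 8 and 6 antisense reads in minimal against 9 and 6 in rich medium, and all 29 lay in the window of NFS1, the neighbouring gene on the other strand. LEU4 had 9 and 10 same-strand reads of no gene in the 300 nt before its start codon in minimal against 20 and 12 in rich medium, with 9 as the lowest count. All these counts exceed the 3 reads that a count of 0 allows, the counting floor used here. With 2 libraries per medium no library could be tested as an outlier.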

How the results depend on the processing

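With 2 libraries per medium the number of libraries limits every test, and genes with few reads, such as BAT2 and LEU9, are limited by depth too. Leaving out a library leaves 1 in its medium, and the spread between replicates then comes from the other medium alone. Without a rich library it comes from the minimal pair, which differed less (chi-square over degrees of freedom 2.25 against 8.54). Counts of calls from these fits are therefore a description only. The count of synthesis genes called higher was 6, ran from 5 to 8 when each library was left out in turn, and was 5 or 6 in the other settings. The count called lower was 1 and was 0 with DESeq2, and 0 to 1 when each library was left out. Over all genes tested, 821 were higher and 731 lower. These counts were 481 and 362 with DESeq2, and 409 to 980 and 275 to 926 when each library was left out. In the 5 lists, 11 genes were higher and 4 to 12 when each library was left out, and 1 was lower, 1 to 3 when each library was left out, 2 with the replicate block and 2 with reads past the stop codon only. For site use over all genes, 43 had more distal and 13 more proximal ends in minimal medium. These counts were 9 and 5 with positions joined within 12 nt, 31 and 8 within 48 nt, 13 and 3 with DESeq2, 55 and 20 with the replicate block, and 2 to 41 and 0 to 19 when each library was left out. No synthesis gene was called for site use in the alternatives in which it was tested, which were 9 for ILV1 and ILV5, 8 for LEU2 and 7 for ILV3, ILV6, LEU1 and LEU4. The replicate numbers do not pair the libraries by the labels, and the deviations of same-numbered libraries correlated at 0.064 over the 4650 genes; the block changed no call of a synthesis gene and gave 902 higher and 806 lower genes. When each library was left out, the log2 change ran from -0.15 (without rich replicate 1) to 0.56 for ILV2, from -0.17 (without rich replicate 1; -0.04 without minimal replicate 2) to 0.39 for LEU1, from -0.078 (without rich replicate 1) to 0.28 for LEU2, and from -0.024 (without rich replicate 2) to 0.55 for GCN4. With a window of 200 nt it was -0.19 for BAP2. For site use it ran from -0.51 (without rich replicate 2; -0.05 without minimal replicate 1) to 0.61 for ILV5, and was -0.12 for LEU2 with positions joined within 12 nt. None of the values below 0 passed the test in its setting, and the cause was not tested. When all reads from the start codon were used, the difference in mean end was 27.7 nt for LEU2, -9.62 nt for ILV6 and -14.8 nt for BAT2.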

Other observations

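Outside the 10 genes and the 5 lists, the genes whose centred profile over the 4 libraries lay nearest to the mean profile of the 10 were DFM1 (distance 0.0241 on the log2 CPM scale), BUD20 (0.0600) and CRN1 (0.0676), out of 2004 candidates. A profile of 4 libraries holds few points, so such closeness is a description only.

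LEU3 had 33 and 29 antisense reads in minimal against 65 and 55 in rich medium, beside 25 to 42 same-strand reads. These are raw reads from libraries of unequal depth.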
